A study of Mus musculus with 4 samples.

Results

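Sox5, Sox6 and Sox9, the transcription factors that drive cartilage formation, were compared between bone-forming cells sorted from 2 places in mouse bone marrow. The 3 genes were read by 14 probe sets annotated to 1 of them alone (7 for Sox5, 4 for Sox6 and 3 for Sox9), out of 34945 such probe sets for 18193 genes. All 4 arrays came from adult NOD/SCID mice, labelled as recipients and as strain NOD.CB17-Prkdc scid/J, whose Prkdc mutation stops B and T cell maturation. The labels do not say what the mice had received. The cells were gated as lacking the Lin antigens, CD45, CD31 and Sca1 and carrying CD51, and were called osteoblasts by the submitters. They came from the trabecular bone area (arrays 1 and 2) or the long bone area (arrays 1 and 2), and no treatment of either group is labelled. The replicates were labelled biological, but the labels name no mice and do not say whether animals were pooled. The p-values therefore refer to these samples, and not to a known number of mice.

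Sox9 is required for mesenchymal cells to become chondrocytes and binds regulatory DNA of cartilage matrix genes such as Col2a1 and Acan through its HMG box, a DNA-binding domain that all Sox proteins share. Sox5 and Sox6 are close relatives of each other, of the SoxD group. They lack a strong activation domain of their own and act with Sox9, a SoxE factor, on the same genes. In bone, Sox9 is switched off as progenitors commit to the osteoblast lineage.

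In RefSeq (GRCm38.p6) Sox5 lies at chr6:143828425-144782287, Sox6 at chr7:115470872-116040776 and Sox9 at chr11:112782210-112787757. Promoter windows of 300 bases (250 before and 50 after a transcription start) were at hand for Sox5 (1 window) and Sox6 (6 windows, at separate starts), and for 22 of the 27 cartilage matrix genes described further on (25 windows). They are shown because Sox5 and Sox6 lay on the same side as the matrix genes by much smaller amounts, and Sox proteins bind short motifs of the kind searched. Capitals mark AACAAT or AACAAAG on either strand; these motifs do not overlap each other. The Sox5 window, on the minus strand at chr6:143947057-143947356, held neither motif. One Sox6 window (minus strand, chr7:116038695-116038994) held AACAAAG once. Another (minus strand, chr7:115824661-115824960) held AACAAT on both strands, 5 bases apart. Of the matrix genes, Epyc, which codes for a small leucine-rich proteoglycan, had a window (plus strand, chr10:97646853-97647152) with AACAAT 3 times on 1 strand, and Matn3, which codes for a cartilage adaptor protein, had a window (plus strand, chr12:8947679-8947978) with neither motif.
Sox5: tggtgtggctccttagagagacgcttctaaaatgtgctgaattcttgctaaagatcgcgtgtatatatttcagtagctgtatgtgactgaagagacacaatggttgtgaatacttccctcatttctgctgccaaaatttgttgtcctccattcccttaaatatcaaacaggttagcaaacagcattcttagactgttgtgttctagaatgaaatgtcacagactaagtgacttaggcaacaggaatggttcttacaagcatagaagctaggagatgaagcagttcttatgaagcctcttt
Sox6 at 116038695: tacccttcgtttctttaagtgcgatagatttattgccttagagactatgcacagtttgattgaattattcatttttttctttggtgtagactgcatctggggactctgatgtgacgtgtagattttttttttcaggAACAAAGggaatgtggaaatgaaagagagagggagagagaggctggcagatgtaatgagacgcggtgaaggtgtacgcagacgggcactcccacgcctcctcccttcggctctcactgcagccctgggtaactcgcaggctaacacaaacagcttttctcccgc
Sox6 at 115824661: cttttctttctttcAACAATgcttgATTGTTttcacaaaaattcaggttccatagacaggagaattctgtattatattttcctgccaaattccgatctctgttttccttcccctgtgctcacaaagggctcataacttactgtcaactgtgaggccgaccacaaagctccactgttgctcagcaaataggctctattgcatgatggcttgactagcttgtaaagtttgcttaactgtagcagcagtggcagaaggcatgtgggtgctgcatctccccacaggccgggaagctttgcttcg
Epyc: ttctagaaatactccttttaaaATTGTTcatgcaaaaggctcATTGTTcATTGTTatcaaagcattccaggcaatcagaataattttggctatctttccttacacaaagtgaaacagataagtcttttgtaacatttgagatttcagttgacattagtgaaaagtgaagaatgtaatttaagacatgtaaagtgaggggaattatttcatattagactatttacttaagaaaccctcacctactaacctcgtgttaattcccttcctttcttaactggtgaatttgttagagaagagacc
Matn3: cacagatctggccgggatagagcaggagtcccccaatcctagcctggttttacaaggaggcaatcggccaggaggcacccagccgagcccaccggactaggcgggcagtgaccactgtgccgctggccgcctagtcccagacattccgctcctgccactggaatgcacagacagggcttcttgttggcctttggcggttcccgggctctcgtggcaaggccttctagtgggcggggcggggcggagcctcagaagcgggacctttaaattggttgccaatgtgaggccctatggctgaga

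Either motif was present in 15.7% of 32851 promoter windows of this length (AACAAT in 10.7%, AACAAAG in 5.85%). Among the cartilage matrix windows 5 of 25 held one (20%, all AACAAT). Epyc had another such window beside the one shown, so the 5 are not from separate genes. Among the Sox6 windows 4 of 6 held one, and these belong to 1 gene. The windows of Sox6 are poorer in G and C (median 43%) than all windows (52.7%). A match is a description of these letters and no evidence of binding, and enhancers outside the windows were not searched.

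Each deposited value is a log2 expression relative to its probe set's median over the 4 arrays. The values carry differences and no levels, so the expression of 1 Sox gene cannot be set against that of another. A coarse level was read from the rounding step of the numbers, which depends on the size of a value before centring and places a probe set in a band of log2 2 to 4, 4 to 8, or 8 and above. A probe set with 1 array below a boundary falls in the lower band, and some are placed too high by coincidence. By this reading 10 of the 14 Sox probe sets were in the band of 4 to 8, 2 (1 each of Sox5 and Sox6) at 8 and above, and 2 of Sox5 in the band of 2 to 4. Over all probe sets read, 33.7% were at 8 and above and 62.4% at 4 to 8. Long bone array 2 was the most variable array, with a log2 SD of 0.484 over 45037 probe sets against 0.271 to 0.311 on the others. For RNA integrity, the Gapdh control's 5' value minus its 3' value was -1.16 on this array and -0.09 to 0.31 elsewhere, while that of the Actb control was -0.04 on it and -0.07 to 0.44 elsewhere. Osteoblast markers were measured for 7 of 11 genes: both Col1a1 probe sets read at 8 and above, both Ibsp probe sets and the Sp7 probe set at 4 to 8. Of the antigens gated against, the Pecam1 probe set read at 4 to 8. The 2 Ptprc probe sets read at 4 to 8 and at 8 and above. Of the other blood cell markers measured, Mpo, Elane, Ltf, Adgre1 and Cd3e read at 8 and above. Itgam, Cd79a, Vpreb1, Gata1 and Itga2b read at 4 to 8, and the Csf1r probe sets in both bands. The bands therefore do not show these genes as absent.

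All 3 Sox genes were slightly lower in the trabecular area, and none of the 14 probe sets passed the test (limma, Benjamini-Hochberg over 45037 probe sets, threshold 0.05), which called 0% of all probe sets (0 of 45037, with 7325 at an unadjusted p under 0.05; 1 was called with ordinary t statistics). Taken per gene as the mean of its probe sets, Sox6 differed most, at 72.6% of the long bone level on the RMA scale, followed by Sox9 at 84.4% and Sox5 at 89.7%. The call rate per gene was 0% as well (0 of 18193, with 2811 at an unadjusted p under 0.05). Of the 14 probe sets 11 were lower and 3 higher in the trabecular area, where 23035 of all 45037 were lower. Their median log2 difference was -0.29, against -0.01 over all probe sets. In 9 of the 14 both trabecular values lay below both long bone values, which held for 26.2% of all probe sets, and in none of the 14 did they lie above, which held for 25.9%. These 9 were 4 of 7 for Sox5, 3 of 4 for Sox6 and 2 of 3 for Sox9. Probe sets of 1 gene share its RNA, and a pair of Sox5 and a pair of Sox9 probe sets were also designed from 1 source sequence each, so the 14 are not independent. Without long bone array 2 the count was again 9 of 14, where 35.9% of all probe sets then met the condition. In bulk samples fewer cells of a type and less RNA per cell cannot be told apart.

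**Figure D1:**
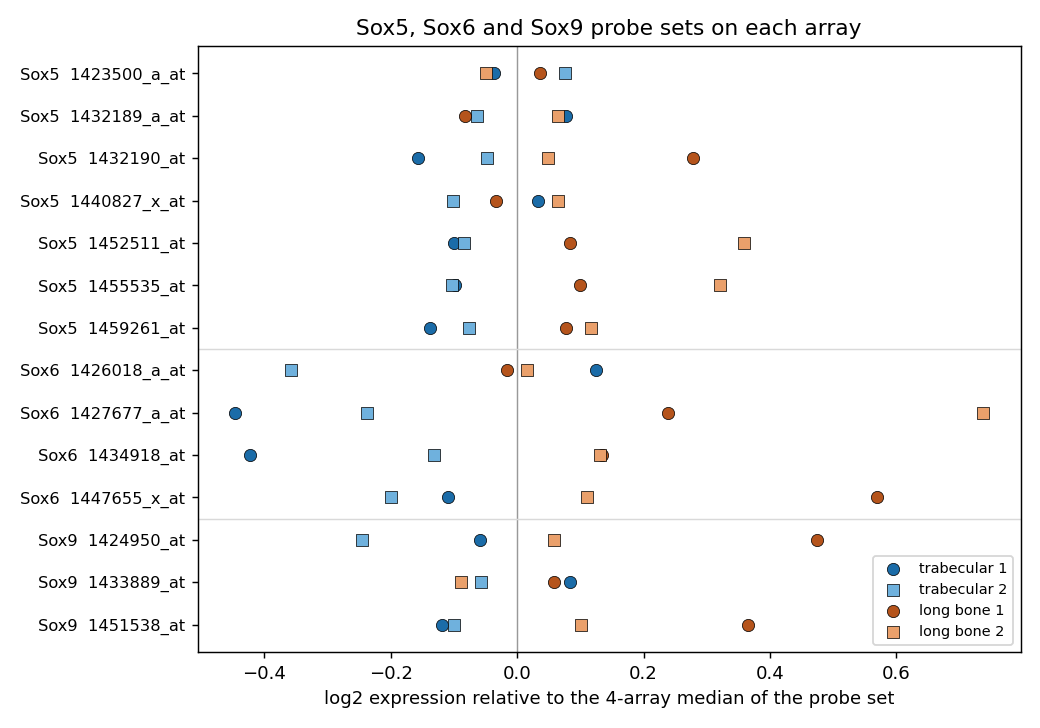
Each row is 1 probe set of Sox5, Sox6 or Sox9 and each point 1 array, on a log2 scale relative to the probe set's median over the 4 arrays (blue, trabecular; orange, long bone). In 9 of the 14 rows both blue points lie left of both orange points.

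Sox9, the SoxE factor at the head of chondrogenesis, had 3 probe sets, and they disagreed. The probe set 1424950_at was at -0.06 and -0.25 in the trabecular area and at 0.48 and 0.06 in the long bones (log2 relative to the 4-array median, as are all values per array below). Long bone array 1 stood highest and the areas did not overlap. The difference was -0.42 (SE 0.20, limma adjusted p = 0.379). The probe set 1451538_at, designed from the same source sequence, had the same shape: -0.12 and -0.10 against 0.37 and 0.10, a difference of -0.34 (SE 0.15, limma adjusted p = 0.358). The remaining one, 1433889_at, read 0.08 and -0.06 against 0.06 and -0.09. Here the areas overlapped, and the difference was 0.03 (95% interval -0.35 to 0.41). All 3 were read in the band of 4 to 8. The gene mean of Sox9 was -0.08 ± 0.07 for trabecular and 0.16 ± 0.19 for long bone samples (SD, n = 2 each), a log2 difference of -0.24 with a 95% interval of -0.65 to 0.16 (limma adjusted p = 0.474). This difference rested on long bone array 1, and was -0.11 without it and -0.38 without long bone array 2.

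Sox6, a SoxD factor that helps Sox9 to activate matrix genes, showed the largest difference of the 3. Its probe set 1427677_a_at read -0.45 and -0.24 on the trabecular and 0.24 and 0.74 on the long bone arrays. The highest value was on long bone array 2 and the areas stood well apart. The trabecular level was 56.3% of the long bone level, a log2 difference of -0.83 (SE 0.22, limma adjusted p = 0.245), the largest among the 14. It had an unadjusted p of 0.0189 in limma, the only 1 of the 14 under 0.05; 7.35% of all probe sets were lower at that threshold. Without long bone array 2 its difference was -0.58.

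The probe set 1434918_at of Sox6 read -0.42 and -0.13 against 0.13 and 0.13, so that the long bone arrays were alike and trabecular array 1 stood lowest. Its difference was -0.41 (SE 0.16, limma adjusted p = 0.319), and -0.26 without trabecular array 1. In 1447655_x_at the high array was instead long bone array 1: -0.11 and -0.20 against 0.57 and 0.11, a difference of -0.49 (SE 0.20, limma adjusted p = 0.335) and of -0.26 without that array. The suffix x marks probes that can also match other transcripts. The fourth, 1426018_a_at, the 1 Sox6 probe set read at 8 and above, overlapped: 0.13 and -0.36 against -0.02 and 0.02, with a difference of -0.12 (95% interval -0.68 to 0.45). Trabecular arrays 1 and 2 were its highest and its lowest.

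The mean of the 4 Sox6 probe sets was tight, at -0.22 ± 0.01 for trabecular and 0.24 ± 0.01 for long bone samples (SD, n = 2 each). Different arrays stood out in different probe sets, so that their deviations offset each other in the mean. The difference was -0.46 (SE 0.12, 95% interval -0.77 to -0.15), with an unadjusted p of 0.0132 and an adjusted p of 0.256 in limma. This SE rests largely on the spread of other genes, since limma moderates each variance over all genes. With ordinary t statistics it was 0.0127. The difference held between -0.47 and -0.45 with any 1 array left out. A larger drop was found in 5.45% of all 18193 genes, against 15% for Sox9 and 23.1% for Sox5.

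Sox5, the partner of Sox6 with which it can form dimers, had the smallest difference and the most probe sets. The 4 without overlap were similar in size. Probe set 1452511_at read -0.10 and -0.08 (trabecular) against 0.08 and 0.36 (long bone), and 1455535_at read -0.10 and -0.10 against 0.10 and 0.32. In both, the trabecular arrays were alike and long bone array 2 was highest. Their differences were -0.31 each (SE 0.15 and 0.14, limma adjusted p = 0.39 and 0.368), and -0.18 and -0.20 without that array.

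In 1432190_at of Sox5 long bone array 1 was highest instead, with -0.16 and -0.05 against 0.28 and 0.05 (difference -0.27, limma adjusted p = 0.434; -0.15 without that array). The dim probe set 1459261_at had an even spread of -0.14 and -0.08 against 0.08 and 0.12 (difference -0.20, limma adjusted p = 0.458). The other 3 Sox5 probe sets overlapped, with values between -0.10 and 0.08 on every array. They differed by 0.03 (1423500_a_at), 0.02 (1432189_a_at) and -0.05 (1440827_x_at), with 95% intervals within -0.41 to 0.40. Of these, 1432189_a_at was designed from the same source sequence as 1432190_at. The gene mean of Sox5 was -0.06 ± 0.0017 against 0.10 ± 0.05 (SD, n = 2 each), a difference of -0.16 (95% interval -0.47 to 0.16, limma adjusted p = 0.547).

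**Figure D2:**
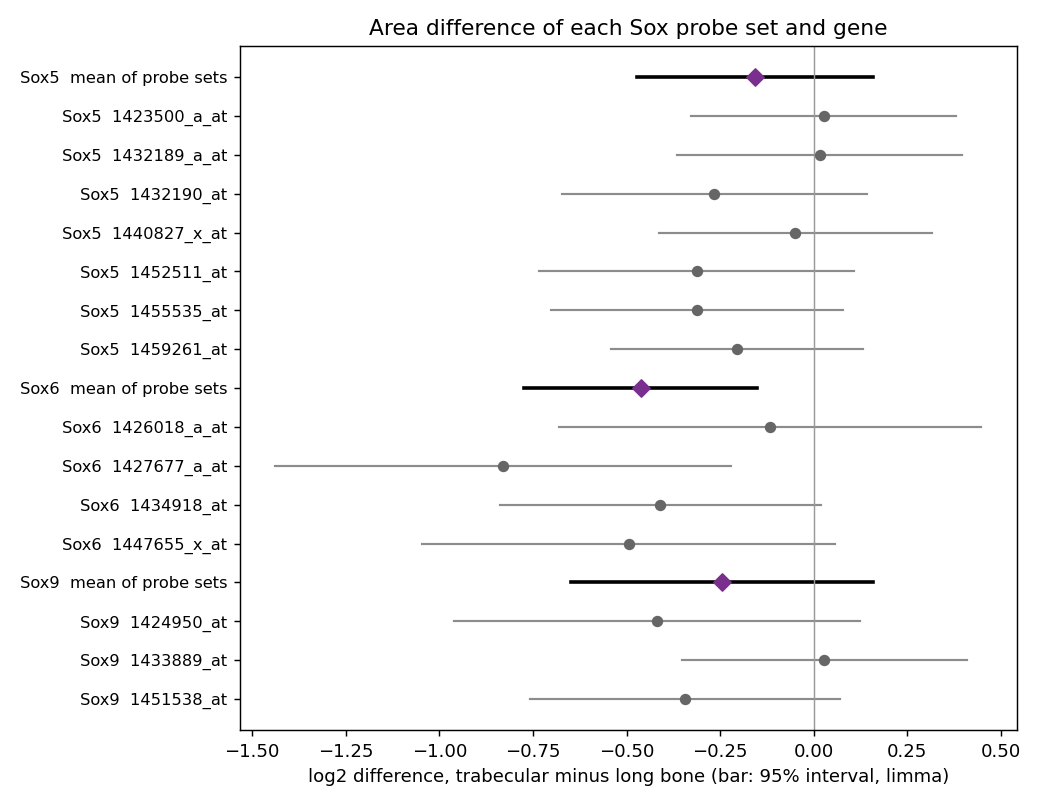
Log2 difference between the areas for each Sox probe set (grey circles) and for each gene as the mean of its probe sets (purple diamonds), with 95% intervals from limma as bars. The interval of the Sox6 mean runs from -0.77 to -0.15, while those of Sox5 and Sox9 span 0.

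Which array was highest differed among the Sox probe sets. It was long bone array 1 in 5, long bone array 2 in 5, trabecular array 1 in 3 and trabecular array 2 in 1. Over the 14 probe sets the median was -0.10 on both trabecular arrays, and 0.09 and 0.08 on long bone arrays 1 and 2. The array with the low Gapdh ratio was therefore not set apart from its replicate by this median, although it was highest in the Sox6 and Sox5 probe sets with the largest differences of each gene.

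The Sox factors were then set against 27 genes of cartilage matrix, a list written with earlier results of these data known. Of these genes 24 were lower and 3 higher in the trabecular area, with a median log2 difference of -1.75, against 0.03 over all genes. Over all 18193 genes 8266 were lower and 9927 higher, the background for this list and the later ones. In 23 the areas did not overlap with the trabecular side lower, which held for 21.4% of all genes, and in 2 with it higher, which held for 29.9%. None of the 27 passed the adjusted threshold in limma (0 over all genes). At an unadjusted p under 0.05 in limma 21 of the 27 were lower, as were 840 of all 18193 genes. Col2a1, the main cartilage collagen and a direct target of Sox9, was at -2.24 and -1.61 against 2.08 and 1.61. That is 7.33% of the long bone level, where Sox9 was at 84.4%. Acan, the large cartilage proteoglycan, was at -0.56 and -0.49 against 1.96 and 0.49, with long bone array 1 highest as in Sox9. Its difference was -1.75 (SE 0.50), and -1.02 without that array. Matn3, whose promoter window is shown above with no motif, differed by -3.54 (SE 0.16). Epyc, with 3 motifs in the window shown, differed by -0.91 (SE 0.18). The other matrix genes with a motif in a window were Prelp (-1.65), Cilp2 (-0.12) and Hapln3 (0.08). A relation between motifs and differences was not tested.

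A larger drop than that of Sox6 was found in 22 of the 27 matrix genes, and a larger drop than that of Sox9 or of Sox5 in 23. The differences of 20 genes lay below the whole 95% interval of Sox6, those of 21 below that of Sox9 and those of 22 below that of Sox5. The matrix genes within the range of the Sox factors or above it were Matn1 (-0.25), Cilp2 (-0.12), Hapln3 (0.08), Matn4 (0.20) and Scrg1 (0.76). Matn1 codes for a matrilin of cartilage, and the matrix gene with the next larger drop than Sox6 was Col11a2, a chain of collagen XI (-0.57). Without long bone array 1 that order turned, with Col11a2 at -0.36 and Sox6 at -0.47.

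**Figure D3:**
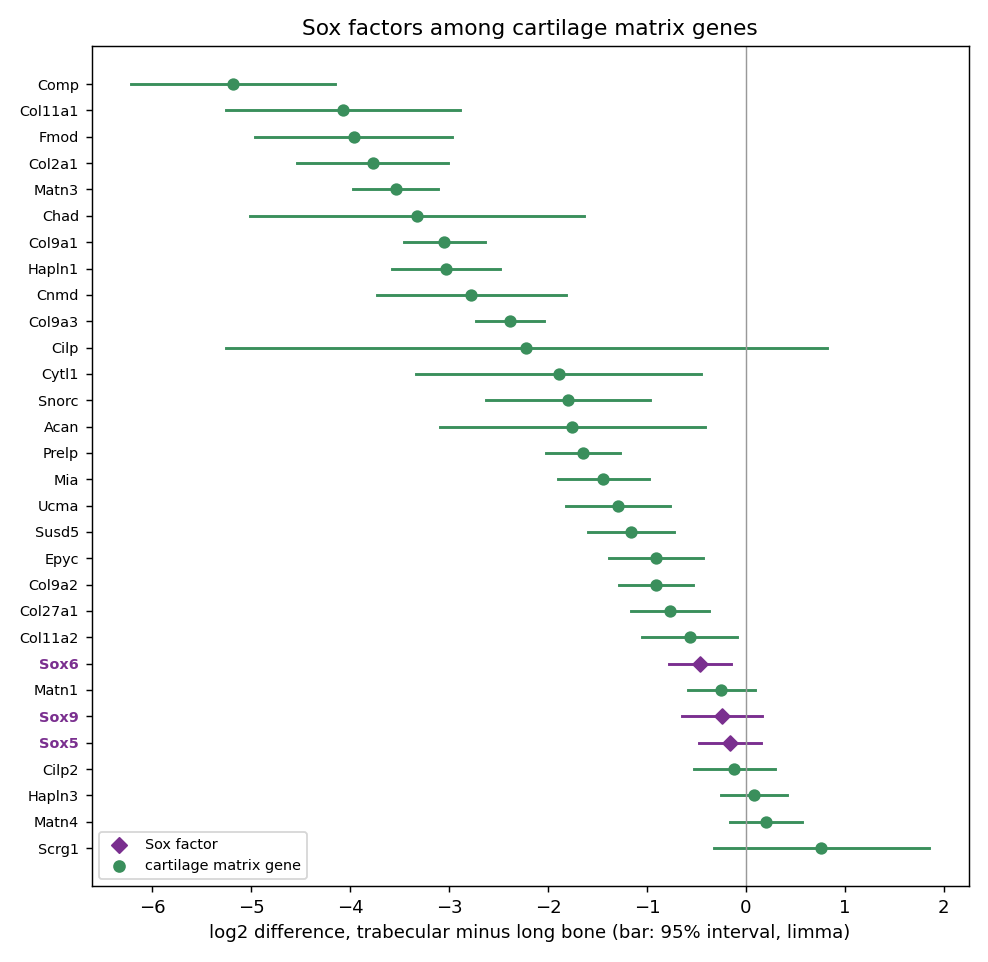
Log2 difference between the areas, trabecular minus long bone, for the 27 cartilage matrix genes (green circles) and the 3 Sox factors (purple diamonds), ordered by size, with 95% intervals from limma as bars. The Sox factors sit among the smallest differences, at -0.46, -0.24 and -0.16, while Comp, at the top, is at -5.18.

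The distance between each factor and the matrix genes was also taken array by array, as the Sox value minus the median of the 27 genes. For Sox9 it was 0.57 and 0.45 on the trabecular arrays against -0.68 and -0.66, a log2 difference of 1.19. For Sox5 it was 0.54 and 0.53 against -0.92 and -0.56, a difference of 1.27, and for Sox6 0.39 and 0.36 against -0.75 and -0.44, a difference of 0.97. All 3 distances were separate between the areas. The matrix median alone was separate, at -0.60 and -0.59 against 0.98 and 0.69. Any gene near 0 on every array would therefore give separate distances, and the separation says nothing particular to the Sox factors. Each had an exact permutation p of 0.333 (two-sided, 2 against 2 arrays), the smallest that this design allows, so it cannot reach the threshold of 0.05. Without probe sets whose probes are shared between transcripts or genes, the distance was 0.78 for Sox5 and 0.64 for Sox6. It was 0.80 for Sox9, which has no such probe sets. The median difference of the matrix genes was then -1.48, against -1.75 with all probe sets.

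**Figure D4:**
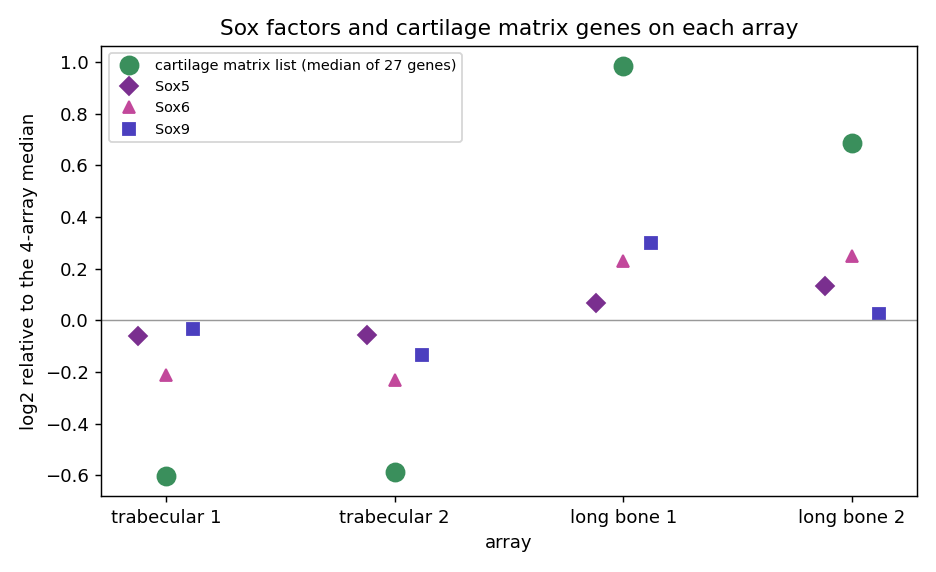
Values on each array, in log2 relative to the 4-array median: the median of the 27 cartilage matrix genes (green circles) and the gene means of Sox5, Sox6 and Sox9. The matrix median runs from -0.60 and -0.59 on the trabecular arrays to 0.98 and 0.69 on the long bone arrays, and every Sox value lies nearer to 0 than it.

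Since RMA compresses differences of dim probe sets, the comparison was repeated within a level band, with no test. In the band of 4 to 8 there were 32 probe sets of cartilage matrix genes and 10 of the Sox factors. The matrix probe sets had a median difference of -2.17 (30 of 32 lower, 29 of them with no overlap), and the Sox probe sets one of -0.33, with a range of -0.83 to 0.03 (8 of 10 lower, each of these 8 with no overlap). All 25995 probe sets in this band had a median of -0.07 and a median absolute difference of 0.22, with 59.7% lower and 32.6% lower with no overlap. The 2 Sox probe sets read at 8 and above, 1 each of Sox5 and Sox6, were at 0.03 and -0.12, where 10 matrix probe sets had a median of -1.20. The band is set by the lowest array, so a gene with a large drop is more often read in a lower band.

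Other members of the Sox family went both ways. Of 17 measured genes 11 were lower and 6 higher, with a median of -0.09, and 0 were called. With no overlap 5 of the 17 were lower and 1 was higher, against 21.4% and 29.9% of all genes. The median was -0.02 without long bone array 2. Sox13, the remaining SoxD gene, went the other way from Sox5 and Sox6, at 0.15 and 0.09 against -0.09 and -0.65, a difference of 0.49 (SE 0.22, limma adjusted p = 0.369). That value was 0.21 without long bone array 2. The other SoxE genes, Sox8 and Sox10, known from glia and neural crest, were at 0.12 and -0.09 and overlapped. Sox8 had 1 probe set, whose level band could not be read and whose value was 0.00 on both trabecular arrays. The largest drop in the family was that of Sox4, a SoxC factor, at -0.52 (-0.21 without long bone array 2), followed by Sox18, an endothelial factor, at -0.31 (-0.18 without that array) and Sox11 at -0.20 (-0.12 without that array). On the higher side Sox13 was followed by Sox17, an endoderm and endothelial factor, at 0.16, which overlapped (0.03 without long bone array 1).

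Partners and regulators of the Sox factors, such as coactivators and transcription factors of the limb mesenchyme, went both ways. Of 44 measured genes (of 46 listed) 27 were lower and 17 higher, with a median of -0.13 and 0 called. With no overlap 13 of the 44 were lower and 9 higher, against 21.4% and 29.9% of all genes. The largest drops were those of Snai2, a repressor linked to mesenchymal cells (-1.78), Epas1, the hypoxia factor HIF-2 alpha (-1.43), and Foxc1, a factor of mesenchyme and marrow stroma (-1.16). All 3 were highest on long bone array 2, and without it they were -0.45, -0.38 and -0.61. The largest values on the other side were Jun, a part of AP-1 (1.22, but -0.16 without long bone array 1), Arid5a, an RNA- and DNA-binding coactivator of Sox9 (0.66, and 0.41 without trabecular array 1), and Nfatc1 (0.52, but 0.15 without long bone array 2). The median of the list was 0.01 without long bone array 2.

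Signals that act on chondrocyte formation gave 15 lower and 7 higher of 22 measured genes (of 23 listed), a median of -0.24 and 0 called. With no overlap 8 of the 22 were lower and 5 higher (21.4% and 29.9% of all genes). Bmp2, a ligand that induces Sox9, had the largest drop, at -0.61 and -0.64 against 0.61 and 1.72 (difference -1.78, SE 0.39, limma adjusted p = 0.244; -1.23 without long bone array 2). Bmp6 was at -1.26, which was -0.03 without long bone array 2, and Pth1r, the receptor for PTHrP, at -1.09 (-0.65 without it). On the other side were Notch1 (0.58, and 0.18 without long bone array 2), the BMP receptor Bmpr1a (0.54) and the Notch effector Rbpj (0.49). The list median was -0.02 without long bone array 2. Genes of hypertrophic cartilage, a stage at which Sox9 is shut down, were lower in 8 of 8 measured cases (6 with no overlap, against 21.4% of all genes; 0 called). Their median was -0.64, and -0.37 without long bone array 2, and the collagenase Mmp13 was at -3.95. Col10a1, at -0.27, and Ihh, at -0.08, overlapped, and Col10a1 was at 0.04 without long bone array 2. Ibsp, Alpl and Sp7 of this list are also among the osteoblast markers below.

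Markers of the sorted cell type and of other stromal cells were mostly lower in the trabecular area too. The labels do not say whether such stromal cells pass the gate. Osteoblast markers were lower in 7 of 7 measured genes, all with no overlap (21.4% of all genes; median -0.96, 0 called), and their medians per array were -0.21 and -0.40 against 0.24 and 0.78. Tendon and fibroblast markers had a median of -0.82 (7 of 8 lower, 0 called). With no overlap 4 of the 8 were lower and 1 was higher, against 21.4% and 29.9% of all genes. The largest drops were those of Dcn (-2.19), Thbs4 (-1.92) and Lum (-1.69). Scx (-0.06) and Tnmd (-0.27) overlapped, and Mkx was at 0.04. Reticular stroma markers had a median of -1.15 (8 of 8 lower, 1 with no overlap against 21.4% of all genes, 0 called), and -0.17 without long bone array 2, where their median value was 1.69. Of the types gated against, blood cell markers went both ways (5 of 12 lower, 0 called), with Itgam, a myeloid integrin, at 1.68 (0.85 without long bone array 2) and Vpreb1, a pre-B cell gene, at -1.23 (0.29 without it). Their median was 0.07, and -0.08 without trabecular array 2. Endothelial markers had a median of 0.04 (3 of 7 lower, 0 called), and -0.04 without trabecular array 1. The lists share genes, and the part of these cells in the Sox differences was not tested.

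Among 9007 other genes with at least 2 probe sets, those whose 4 values were nearest to each Sox factor were found by the root mean square difference over the 4 arrays. For Sox6 they were Plscr4 (0.02), Spire1 (0.02) and 2310067E19Rik (0.02), for Sox5 Igkv9-120, Tlcd1 and Tcaf1 (each 0.01), and for Sox9 Met (0.03), Dot1l (0.03) and Sertad3 (0.04). Over 4 values of this size many genes lie close to each other. Genes with 1 probe set, most of the matrix list among them, were not searched.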

How the data were processed

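Per the labels' protocols and the design text, amplified and biotin-labelled RNA of the sorted cells was run on Affymetrix arrays, 2 per area. A human array is named there, whereas the table's probe sets and annotation belong to a mouse array. The deposited values are log2 expression from RMA, per the submitters' processing notes (version not given in the sources used here). They are centred: the 4-array median was 0 for all 45101 probe sets. What made the centring, and the base of the logarithm, are not stated; RMA returns base 2, which the number steps match.

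After leaving out 64 control probe sets, 45037 were fitted, and 34945 with 1 gene symbol gave 18193 gene means. Areas were compared (trabecular minus long bone) with limma 3.58.1 in R 4.3.3 (lmFit, eBayes, 2 residual degrees of freedom, no block), with Benjamini-Hochberg adjustment over all features, and intervals at 95%. Distances to the matrix median had an exact permutation test. Scripts were tested on simulated data. Alternatives were leaving out arrays, other normalization, other gene summaries, a level filter, a replicate block and other variance models. A further set was chosen after seeing the data: leaving out arrays for the counts without overlap, and a crossed pairing. Members and gene lists were chosen with earlier results of these data known. Named genes are the members, the matrix list, up to 3 per direction of other lists, SoxD and SoxE genes, and the 3 most alike. The number of arrays limits the precision.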

Additional observations from a re-analysis of the deposited data

How the results depend on the processing

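The 3 Sox gene differences kept their sign and stayed uncalled under the 12 alternatives tried for each. They ranged from -0.27 to -0.12 for Sox5, from -0.50 to -0.40 for Sox6 and from -0.38 to -0.11 for Sox9, with limma adjusted p of 0.367 to 0.946, 0.113 to 0.806 and 0.381 to 0.941. The distances to the matrix median kept their sign too, at 0.78 to 1.45 for Sox5, 0.64 to 1.12 for Sox6 and 0.80 to 1.24 for Sox9. The matrix median alone gives this sign to any gene near 0. The matrix median was -1.74 to -1.31 with 1 array left out and -1.48 without probe sets with shared probes. With ordinary t statistics 1 probe set was called, and 0 in each other setting. Per gene, 1603 genes were called without long bone array 1, when the spread comes from the trabecular pair alone and the lone array is taken to vary like it, and 1 gene in each of 3 settings (without long bone array 2, without shared probes, ordinary t statistics). Sox5, Sox6 and Sox9 were not among those called. The 5 probe sets with overlapping areas changed sign with an array left out: 1423500_a_at from -0.030 to 0.082, 1432189_a_at from -0.057 to 0.089 and 1440827_x_at from -0.12 to 0.018 (Sox5), 1426018_a_at from -0.36 to 0.13 (Sox6), and 1433889_at from -0.045 to 0.10 (Sox9). The cause was not tested.

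With the replicate number as a block 0 probe sets were called and the limma adjusted p of Sox6 was 0.357, so the block changed no call for these results. Deviations of same-numbered arrays correlated at -0.181 over probe sets, and a crossed pairing as a block called 0 probe sets as well (7340 at an unadjusted p under 0.05).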
